A study of Mus musculus with 9 samples.

Results

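The genes described here are the 42 that were expressed in control CD4+ T cells and had lost at least 75% of that level in cells carrying either of the activated NFAT2 vectors. They were chosen by their measured values in CPM, read counts scaled to a common library total. The Control mean had to be at least 20 CPM, and the NFAT2-CA mean and the NFAT2-CARIT mean each at most 0.25 times the Control mean. Of 16500 genes listed, 6962 reached 20 CPM in Control, and 56 of these passed both other limits, which is 0.804% of them. The rule left out 3 predicted gene models and 11 genes by name (among them Thy1, Ly6c1, Ly6c2, Cxcr3, Cd226 and Ms4a4b), which gave the 42. Since the fall against Control chose the genes, its size is given as a description and carries no test.

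The cells were primary CD4+ T cells from C57BL/6 mice, a common inbred laboratory strain, kept in RPMI-1640 with serum. All 3 groups were transduced with a retrovirus, so the controls carried a vector as well: the CTRL vector (Control), NFAT2_CA (NFAT2-CA) or NFAT2_CARIT (NFAT2-CARIT), with 3 libraries each. NFAT2 is the product of Nfatc1, CA denotes a constitutively active form, and the RIT changes are known to weaken the contact of NFAT with its partner AP-1. The labels give no promoter, no time after transduction, no sorting for transduced cells, and leave it unsaid if each library had its own mouse or culture, so p-values refer to the spread among these libraries, which may be technical.

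NFAT proteins are calcium-dependent transcription factors: the phosphatase calcineurin releases them to the nucleus after T cell receptor stimulation, where many of their sites are shared with AP-1. NFAT acting without AP-1 is known for a programme of exhaustion and anergy. Resting T cells express genes that restrain growth and glucose uptake, sensors of microbes, and interferon-inducible genes that are transcribed at a low constant level. The Control cells were transduced as well and are not taken here as resting cells. The part of T cell activation in the falls was not tested.

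Sequencing depth was 19947600 to 38188800 reads per library, recovered from the spacing of the low values, so that 3 reads were worth 0.0786 to 0.150 CPM and the 20 CPM limit corresponded to 399 to 764 reads. Nfatc1 itself was listed at 188 to 228 CPM in Control, 336 to 395 in NFAT2-CA and 240 to 253 in NFAT2-CARIT. Both vector groups were above Control in every library, although reads from the vectors' own insert and from the endogenous gene are not separated. All 8 CD4 T cell markers examined (Cd3d, Cd3e, Cd3g, Cd4, Cd28, Cd5, Lck, Trac) were present, with a summed level of 5548 to 5681 CPM in Control, 6606 to 7048 in NFAT2-CA and 6329 to 6423 in NFAT2-CARIT.

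In no gene of the 42 did a vector library reach the lowest Control library, a gap that follows largely from the limits that chose the genes. The summed level of the 42 was 4898, 4881 and 4981 CPM in the Control libraries, 837, 779 and 801 CPM in NFAT2-CA and 733, 800 and 853 CPM in NFAT2-CARIT. Without Txnip, the most abundant of them, the sum ran from 2617 to 2713 CPM in Control, 385 to 410 in NFAT2-CA and 331 to 395 in NFAT2-CARIT. The median gene kept 15.9% of its Control mean with NFAT2-CA (range 0.810% to 24.4%) and 15.5% with NFAT2-CARIT (range 0.869% to 24.3%). In these bulk libraries, fewer cells expressing a gene and less of its RNA per cell cannot be told apart.

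Most of the genes were of moderate level in Control, with a median of 42.7 CPM; 24 lay below 50 CPM and 10 at 100 CPM or more. In all, 5 kept less than 10% with both vectors, and 3 kept at least 20% with both. Replicates were tight: the median coefficient of variation over the 42 was 6.02% in Control, 9.35% in NFAT2-CA and 13.7% in NFAT2-CARIT. In GENCODE M21, 41 of the genes are protein coding, and A630023P12Rik is a long intergenic noncoding RNA.

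**Figure D1:**
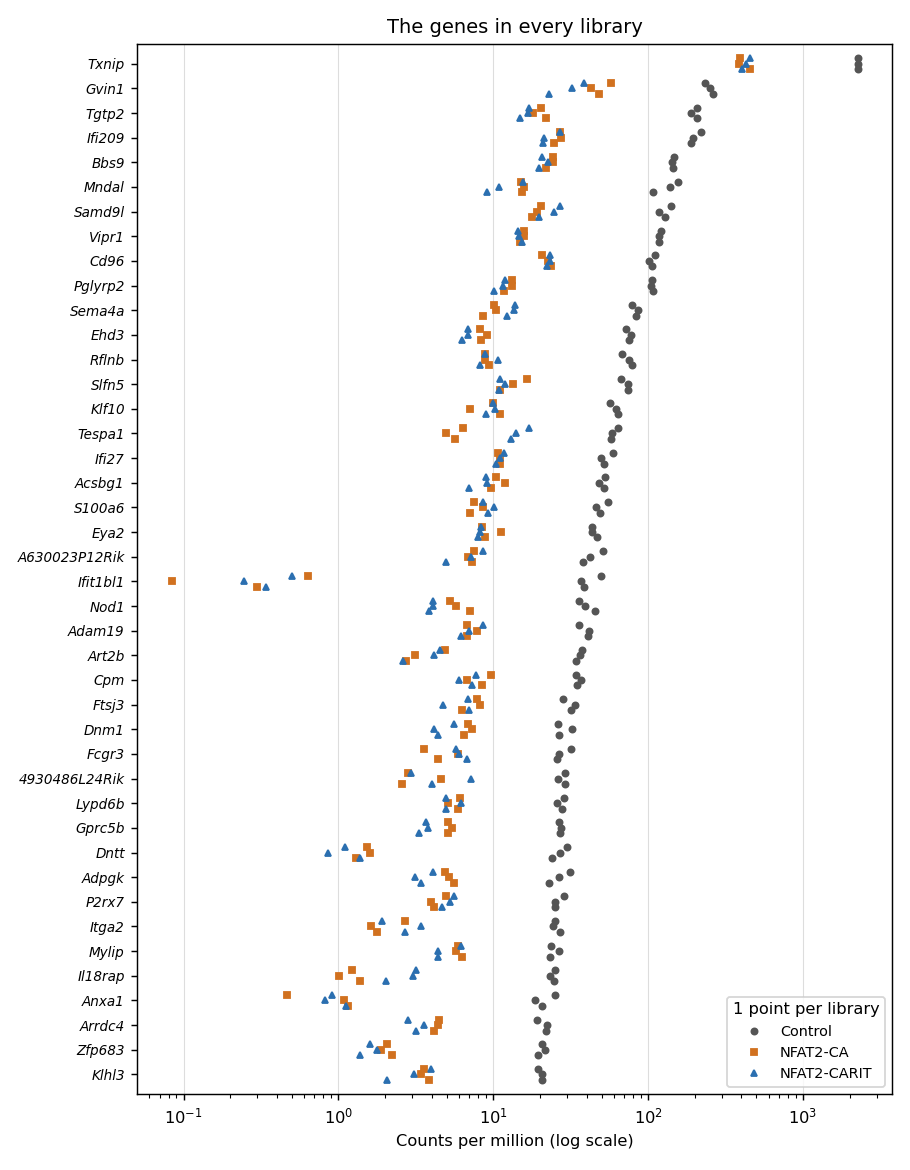
Each of the 42 genes is a row, ordered by Control mean, and each point is 1 library (CPM, log axis; grey circles Control, orange squares NFAT2-CA, blue triangles NFAT2-CARIT, 3 each). In every row the 3 Control points lie to the right of all 6 vector points, which follows largely from the limits that chose the genes. Ifit1bl1 lies farthest to the left with both vectors.

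The limit cut through a continuous range. Just inside it stood Dnm1 (24.3% left with NFAT2-CA, 16.5% with NFAT2-CARIT), Tespa1 (9.42% and 24.3%) and Mylip (24.4% and 20.3%). Just outside stood the apolipoprotein L gene Apol7e (21.6% and 25.3%), the IL-18 receptor chain Il18r1 (13.4% and 25.4%) and Mvb12b, which encodes an ESCRT-I subunit (25.4% and 23.3%).

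Txnip was by far the most abundant of the genes. It encodes an alpha-arrestin that binds thioredoxin and draws glucose transporters off the cell surface, and its promoter is known to be driven by MondoA (Mlxip) or ChREBP with their partner Mlx, through a carbohydrate response element made of a pair of CACGNG boxes set 5 bases apart. Txnip was at 2268, 2264 and 2267 CPM in Control, 451, 386 and 391 CPM in NFAT2-CA and 402, 427 and 457 CPM in NFAT2-CARIT. The Control libraries were almost identical, and the vector groups overlapped each other at 18.1% and 18.9% of Control. Per kilobase of exon it stood at 726 CPM in Control, against 68.4 for Tgtp2, 56.7 for Ifi209 and 48.3 for Cd96.

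Arrdc4, an alpha-arrestin under the same glucose-sensing factors, was at 21.8, 22.2 and 19.0 CPM in Control, 4.13, 4.40 and 4.47 CPM in NFAT2-CA and 3.17, 3.57 and 2.81 CPM in NFAT2-CARIT. Of the remaining arrestins of the family, Arrdc1 fell with both vectors to a smaller extent, from 58.2 CPM in Control to 42.0 and 42.7 CPM, and Arrdc2 had 14.7, 15.6 and 15.4 CPM and passed the test with neither vector. Arrdc3 rose with NFAT2-CA (15.5 to 19.6 CPM) and had 18.1 CPM with NFAT2-CARIT, which did not pass. Mlxip had 131, 119 and 130 CPM, past the test with neither vector, and Mlx fell from 43.5 to 33.1 and 37.9 CPM.

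The promoter stretches of both arrestins are shown because they carry the CACGNG letters, here in capitals, from the RefSeq promoter table (GRCm38.p6, read 5′ to 3′ on the gene's strand). The Txnip stretch is chr3:96557812-96557948 on the plus strand, 145 to 9 bases before the start, and its paired boxes lie 85 to 69 bases before the start. A further box, which reads CACGNG on the opposite strand, lies 52 to 47 bases before the start. The Arrdc4 stretch is chr7:68749366-68749488 on the minus strand, 250 to 128 bases before the start, with 1 box.
Txnip: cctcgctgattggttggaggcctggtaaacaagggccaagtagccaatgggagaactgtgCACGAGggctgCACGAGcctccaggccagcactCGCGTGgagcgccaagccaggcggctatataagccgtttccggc
Arrdc4: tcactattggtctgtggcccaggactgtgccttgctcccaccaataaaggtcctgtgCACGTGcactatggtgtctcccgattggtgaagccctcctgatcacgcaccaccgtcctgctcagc
A pair with exactly this spacing, searched on both strands after the genes were known, occurred in 16 of 32851 promoter windows in the table (0.0487%), and in no other of the 42 genes with a window. At least 1 CACGNG box, paired or not, was in 28.6% of the matched genes and 48.0% of other genes of at least 20 CPM in Control. Counted by window, it was in 26.7% of windows of the matched genes and 27.5% of all windows. The box itself holds a CG, of which windows of the matched genes had a median of 5, against 22 in those of the other genes. The part of this in the lower share was not tested.

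Of the genes, 8 are interferon-inducible. Ifit1bl1, of the IFIT family of antiviral RNA-binding proteins, fell deepest of all 42: it had 38.7, 37.0 and 49.6 CPM in Control, 0.298, 0.0839 and 0.633 CPM in NFAT2-CA and 0.340, 0.247 and 0.501 CPM in NFAT2-CARIT. In reads this was 909 to 1190 per Control library against 2 to 15 per vector library, so the gene was close to silent with both vectors. It was the only one of the 42 below 1 CPM in all 6 vector libraries.

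Gvin1, a very large interferon-inducible GTPase, had 264, 250 and 231 CPM in Control, 48.2, 43.0 and 57.3 CPM in NFAT2-CA and 23.0, 32.3 and 38.7 CPM in NFAT2-CARIT. Tgtp2, an immunity-related GTPase, had 206, 190 and 207 CPM, then 21.8, 18.0 and 20.3 CPM, then 14.9, 16.7 and 17.0 CPM in the same order. In both GTPases the NFAT2-CARIT libraries lay wholly under the NFAT2-CA libraries. Gvin1 and Tgtp2 have near-identical copies, so the authors' counting could have split their reads.

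Ifi209 and Mndal belong to the p200 family of DNA-binding proteins on chromosome 1 and were the sole pair of the 42 within 1000000 bases of each other, with 201197 bases between them. Ifi209 had 190, 193 and 220 CPM in Control, 24.6, 27.4 and 27.0 CPM in NFAT2-CA and 20.9, 21.3 and 27.1 CPM in NFAT2-CARIT. Mndal had 108, 139 and 156 CPM, then 15.3, 15.9 and 15.0 CPM, then 9.14, 10.9 and 15.4 CPM. The vector groups overlapped in both genes, which also have close paralogs.

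Samd9l, an inhibitor of viral translation and of growth, had 129, 118 and 140 CPM in Control, 17.9, 19.2 and 20.4 CPM in NFAT2-CA and 19.6, 24.6 and 26.9 CPM in NFAT2-CARIT. Slfn5, a nuclear member of the Schlafen family, had 73.7, 74.1 and 66.6 CPM, then 11, 13.3 and 16.5 CPM, then 10.9, 12 and 11 CPM. Ifi27, a mitochondrial interferon-inducible protein, had 51.7, 49.7 and 58.9 CPM, then 11.1, 11 and 10.7 CPM, then 10.4, 11.1 and 11.7 CPM. All 3 kept more than the p200 genes did, between 14.9% and 20.8% of Control.

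The promoters of Tgtp2 and Ifit1bl1 are shown because they hold an interferon response motif, GAAA set 2 bases before GAAA, or its reverse complement, in capitals (RefSeq, GRCm38.p6, gene's strand). The Tgtp2 stretch is chr11:49064213-49064342 on the minus strand, the last 130 bases before the start, with the motif 70 to 61 bases before it. The Ifit1bl1 stretch is chr19:34602003-34602132 on the minus strand, 164 to 35 bases before the start, with the motif on the opposite strand 104 to 95 bases before it.
Tgtp2: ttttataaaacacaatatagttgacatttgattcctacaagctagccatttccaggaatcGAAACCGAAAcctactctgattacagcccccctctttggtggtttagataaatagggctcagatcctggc
Ifit1bl1: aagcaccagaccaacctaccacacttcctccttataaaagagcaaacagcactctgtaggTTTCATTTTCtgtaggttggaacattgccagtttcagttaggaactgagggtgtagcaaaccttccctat
The motif was found in 5 of the 35 genes with a promoter window (14.3%: Acsbg1, Ifit1bl1, Mndal, Slfn5 and Tgtp2), in 3.84% of other genes of at least 20 CPM in Control and in 3.44% of all windows. Where a G precedes it, the motif overlaps the NFAT core GGAAA, which was no more frequent in the 42 than elsewhere (65.7% of genes against 64.0%).

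A pair of genes encode sensors of bacterial cell wall. Pglyrp2, an amidase that cuts peptidoglycan, had 107, 104 and 106 CPM in Control, 11.7, 13.3 and 13.3 CPM in NFAT2-CA and 10.1, 11.6 and 11.9 CPM in NFAT2-CARIT. Nod1, a cytosolic peptidoglycan receptor, had 45.1, 39.0 and 35.8 CPM, then 7.06, 5.78 and 5.23 CPM, then 3.82, 4.09 and 4.11 CPM. Pglyrp2 did not separate the vectors, while every NFAT2-CARIT library of Nod1 was below every NFAT2-CA library. Ripk2, the kinase downstream of Nod1, rose from 22.1 to 26.8 and 27.5 CPM, and Pglyrp1 fell less far, from 73.7 to 53.1 and 44.7 CPM.

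The largest class, with 12 genes, encodes receptors and other surface proteins. Vipr1, the receptor for vasoactive intestinal peptide that is typical of resting T cells, had 118, 118 and 120 CPM in Control, 14.8, 15.9 and 15.8 CPM in NFAT2-CA and 15.3, 14.7 and 14.5 CPM in NFAT2-CARIT. Cd96, which binds the ligand shared by Tigit and Cd226, had 105, 101 and 110 CPM, then 23.5, 22.4 and 20.7 CPM, then 22.1, 23.2 and 23.2 CPM. Neither gene separated the vectors. Of the receptors that share that ligand, Cd226 fell from 92.6 to 5.55 and 6.88 CPM and Tigit rose from 16.6 to 119 and 73.0 CPM.

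Sema4a, a semaphorin with roles in T cell priming, had 83.8, 85.6 and 78.5 CPM in Control, 8.51, 10.3 and 10.1 CPM in NFAT2-CA and 12.3, 13.7 and 13.9 CPM in NFAT2-CARIT. Its relative Sema4c went the opposite way, from 6.19 to 120 and 140 CPM, while Sema4b (39.6 to 19.4 and 21.6 CPM) and Sema4d (437 to 308 and 334 CPM) fell less than Sema4a. Sema4c was below 10 CPM in every Control library and entered the test through the vector libraries alone, which largely fixed its direction.

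Il18rap, the accessory chain of the IL-18 receptor, had 24.5, 23.1 and 25.0 CPM in Control, 1.38, 1.01 and 1.22 CPM in NFAT2-CA and 2.02, 3.02 and 3.16 CPM in NFAT2-CARIT. The partner chain Il18r1, whose gene lies 14507 bases away, fell from 20.8 to 2.79 and 5.27 CPM. Both chains were thus lower with NFAT2-CA than with NFAT2-CARIT. Itga2, the collagen-binding integrin alpha chain CD49b, had 26.9, 24.3 and 24.9 CPM, then 1.78, 1.63 and 2.70 CPM, then 2.70, 3.43 and 1.90 CPM, and its beta chain Itgb1 fell from 194 to 133 and 139 CPM.

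Art2b, an ectoenzyme that ADP-ribosylates surface proteins, had 34.0, 36.2 and 37.2 CPM in Control, 2.71, 3.10 and 4.89 CPM in NFAT2-CA and 2.62, 4.12 and 4.56 CPM in NFAT2-CARIT. P2rx7, the ATP-gated channel that Art2b is known to modify and open, had 25.1, 25.2 and 28.6 CPM, then 4.16, 3.98 and 4.98 CPM, then 4.69, 5.24 and 5.61 CPM. The enzyme and its target were thus both low with either vector. P2rx4, a related channel, had 36.4, 32.4 and 37.1 CPM and passed the test with neither vector, and the paralog Art2a was under 1 CPM in every group.

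Fcgr3, a low-affinity receptor for IgG, had 25.8, 26.7 and 31.5 CPM in Control, 4.39, 5.91 and 3.54 CPM in NFAT2-CA and 6.78, 5.99 and 5.71 CPM in NFAT2-CARIT. Gprc5b, an orphan G protein-coupled receptor, had 27.1, 27.4 and 26.6 CPM, then 5.09, 5.37 and 5.10 CPM, then 3.33, 3.76 and 3.66 CPM. Its relative Gprc5a rose from 1.20 to 10.2 and 12.8 CPM. The other surface genes were the sheddase Adam19 (39.2 CPM in Control), the carboxypeptidase Cpm (35.3 CPM) and the lipid-anchored Lypd6b (27.3 CPM), which kept 18.2% to 23.5% of Control. Cpd, a further membrane carboxypeptidase, rose from 5.83 to 48.5 and 73.2 CPM. Gprc5a and Cpd were below 10 CPM in every Control library and entered the test through the vector libraries alone, which largely fixed their direction.

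Fcgr3, Itga2 and Il18rap are also known from natural killer and myeloid cells, and markers of such cells moved with them in part. Of 5 natural killer markers only Klrd1 was listed, at 4.84 to 6.62 CPM over the Control libraries, 0.251 to 0.446 CPM in NFAT2-CA and 0.275 to 0.651 CPM in NFAT2-CARIT, and Ncr1, Klrb1c, Klra8 and Klre1 were not among the genes listed. Of 9 myeloid and dendritic markers 5 were listed, and their sum was 76.1 to 85.2 CPM in Control, 101 to 112 in NFAT2-CA and 84.1 to 96.0 in NFAT2-CARIT. Among these, Itgam went from 7.98 to 0.701 and 1.34 CPM, while H2-Ab1 went from 63.5 to 91.5 and 71.6 CPM. Fcer1g, the signalling chain that Fcgr3 needs, was at or below 0.445 CPM in every group mean. Of 6 B cell markers 3 were listed. Ighm had 415, 208 and 191 CPM, Cd79b had 2.37, 0.613 and 0.824 CPM, and Cd79a had 0.568, 0.216 and 0.367 CPM. The part of these cell types in the falls was not tested.

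Transcription factors and cofactors account for 3 of the genes. Zfp683 (Hobit), which maintains resident memory lymphocytes, had 19.5, 21.7 and 20.7 CPM in Control, 2.23, 1.89 and 2.07 CPM in NFAT2-CA and 1.39, 1.78 and 1.60 CPM in NFAT2-CARIT. Its relative Prdm1 (Blimp-1) had 28.9, 29.8 and 34.3 CPM, higher than Control with NFAT2-CARIT, while the difference between the vectors did not pass (limma adjusted p = 0.0898). Klf10, a TGF-beta-inducible repressor, kept 15.4% and 16.1% of its 60.7 CPM, and the transcriptional cofactor Eya2 kept 21.2% and 18.3% of 44.5 CPM. Klf11, the closest relative of Klf10, fell in step from 15.1 to 3.99 and 3.85 CPM. Klf2, Klf3 and Klf13 were also lower with both vectors, and Klf6 and Klf7 with NFAT2-CA only. Of the relatives of Klf10 examined, Klf4 alone rose, from 3.33 to 8.46 and 12.4 CPM. It was below 10 CPM in every Control library, which largely fixed its direction. Eya3 passed the test with neither vector.

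A further 3 genes act in signalling and calcium handling. Tespa1, which links the T cell receptor to release of calcium through the IP3 receptor during thymocyte selection, had 57.9, 58.4 and 64.0 CPM in Control, 5.66, 4.94 and 6.37 CPM in NFAT2-CA and 13, 14 and 16.9 CPM in NFAT2-CARIT. Anxa1, a calcium-dependent membrane-binding protein with anti-inflammatory roles, had 20.5, 18.6 and 25.2 CPM, then 1.15, 1.09 and 0.464 CPM, then 1.13, 0.824 and 0.902 CPM. Anxa1 was thus near 1 CPM with both vectors, and Tespa1 stayed well above that. S100a6, a small EF-hand protein, kept 15.5% and 18.6% of 49.9 CPM.

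The abundant annexins did not share the depth of the fall of Anxa1: Anxa2 had 456, 435 and 548 CPM, Anxa5 63.2, 67.9 and 71.2 CPM, and Anxa6 fell from 501 to 281 and 288 CPM. Among S100 genes, S100a10 had 442, 367 and 402 CPM and S100a11 had 51.4, 42.9 and 45.3 CPM, while S100a4, below the level needed for the test, had 6.24, 0.569 and 0.696 CPM.

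Another 4 genes act in membrane traffic, the cytoskeleton or the cilium. Bbs9, a subunit of the BBSome that carries cargo to cilia, had 144, 143 and 148 CPM in Control, 21.9, 24.3 and 24.2 CPM in NFAT2-CA and 19.7, 22.6 and 20.5 CPM in NFAT2-CARIT. Other BBSome subunits were scarce: Bbs1, Bbs2, Bbs4, Bbs5 and Bbs7 were all under 7 CPM in every group, and Bbip1 (16.7, 17.9 and 15.9 CPM) passed the test with neither vector. Ehd3, an ATPase of endosome recycling, had 75.1, 77.7 and 71.4 CPM, then 8.37, 9.13 and 8.18 CPM, then 6.31, 6.84 and 6.86 CPM. Its paralogs went up, Ehd1 from 31.5 to 60.3 and 68.4 CPM and Ehd4 from 6.03 to 18.5 and 15.6 CPM.

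Dnm1, the dynamin of neurons that pinches off vesicles, had 26.5, 32.4 and 26.0 CPM in Control, 6.51, 7.29 and 6.83 CPM in NFAT2-CA and 4.37, 4.12 and 5.56 CPM in NFAT2-CARIT. The ubiquitous Dnm2 fell only from 331 to 240 and 260 CPM. Rflnb, a filamin-binding regulator of actin, kept 12.2% and 12.6% of 73.9 CPM, beside a fall of filamin A (Flna) from 539 to 335 and 402 CPM.

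Among the metabolic genes, Acsbg1, which activates very long fatty acids with coenzyme A, had 52.2, 48.2 and 52.5 CPM in Control, 9.67, 11.9 and 10.3 CPM in NFAT2-CA and 6.96, 9.12 and 9.02 CPM in NFAT2-CARIT. In contrast, 3 acyl-CoA synthetases of the Acsl family rose: Acsl3 from 17.4 to 128 and 115 CPM, Acsl4 from 154 to 190 and 214 CPM and Acsl5 from 112 to 257 and 174 CPM. Adpgk, a glucokinase that uses ADP, had 23.0, 26.7 and 31.0 CPM, then 5.58, 5.15 and 4.89 CPM, then 3.43, 3.13 and 4.11 CPM. The ATP-using hexokinase Hk1 had 369, 397 and 337 CPM and passed the test against Control with neither vector, while Hk2 rose from 189 to 233 CPM with NFAT2-CA and fell to 155 CPM with NFAT2-CARIT.

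Mylip, a ubiquitin ligase and a target of the sterol receptor LXR, had 23.2, 26.7 and 23.6 CPM in Control, 6.25, 5.74 and 5.95 CPM in NFAT2-CA and 4.37, 4.37 and 6.16 CPM in NFAT2-CARIT. The further LXR targets Abcg1 (83.4 to 28.0 and 31.9 CPM) and Abca1 (13.4 to 6.37 and 3.50 CPM), which export sterol, fell with Mylip. LXR beta (Nr1h2) rose from 80.5 to 102 and 107 CPM, and LXR alpha (Nr1h3) was under 2 CPM in every group. Klhl3, a substrate adaptor of the Cul3 ubiquitin ligase, kept 18.0% and 15.1% of 20.1 CPM, with Cul3 itself at 166, 157 and 180 CPM and past the test with neither vector.

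Dntt, the template-independent DNA polymerase that adds bases at antigen receptor joints in thymocytes, was still measurable in Control at 24.0, 27.1 and 29.7 CPM. It had 1.30, 1.59 and 1.52 CPM in NFAT2-CA and 1.39, 0.851 and 1.10 CPM in NFAT2-CARIT, and Rag1, which acts with it in thymocytes, was below 1 CPM in every group. Ftsj3, a methyltransferase of ribosome biogenesis, kept 23.8% and 19.8% of 31.2 CPM, beside falls of the nucleolar Nop56 (53.6 to 23.1 and 21.6 CPM) and Ebna1bp2 (26.1 to 14.3 and 11.6 CPM). The uncharacterised A630023P12Rik and 4930486L24Rik had 43.7 and 28.0 CPM in Control and kept 11.9% to 16.8%.

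The direct comparison of the vectors asks whether the RIT changes altered what was left of these genes. The rule did not use it, although the limit caps both groups. It is not free of Control: 23 of the 42 reached the level needed for the test through the Control libraries alone. These libraries also share in the estimate of the spread. With only the 6 libraries compared, 15 of the 42 were tested, and 3 were called higher and 1 lower with NFAT2-CARIT. With the tested genes held fixed, 4 were higher and 7 lower in those 6 libraries. By limma on log2(CPM + 1), with Benjamini-Hochberg adjustment over 9233 genes, 14 of the 42 (33.3%) were called at an adjusted p under 0.05. Of the 42, 5 were higher with NFAT2-CARIT (11.9%, against 15.1% of all genes tested) and 9 were lower (21.4%, against 18.9%), so the shares lay near the background in both directions. The median absolute difference was 0.24 on the log2 scale for the 42 and 0.14 for all genes. The 42 were chosen to be low with both vectors, and no genes of a like level were set beside them. The part of replicate spread in this difference was not tested. The authors' deposited table of the same comparison, made with DESeq2, called 2 of the 42 at an adjusted p under 0.05 (Tespa1 and Gvin1), where it called 2.84% of all genes with a value in either direction.

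Tespa1 showed the largest difference, 1.23 ± 0.10 higher with NFAT2-CARIT on the log2(CPM + 1) scale (± SE, limma adjusted p = 2.2e-07), or 2.58 times the NFAT2-CA mean in CPM. Il18rap was 0.75 ± 0.13 higher (limma adjusted p = 0.000446), 2.27 times the NFAT2-CA mean, at levels of 1 to 3 CPM where the added 1 shrinks the log2 value. The gap was 0.42 ± 0.08 for Sema4a (limma adjusted p = 0.00109). In these 3 genes all NFAT2-CARIT libraries lay above all NFAT2-CA libraries, and Tespa1 and Il18rap were the only ones of the 42 to differ by more than 2-fold between the vectors. Fcgr3 (0.37 ± 0.14, limma adjusted p = 0.046) and Samd9l (0.28 ± 0.10, limma adjusted p = 0.0381) also passed, although their vector libraries overlapped.

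The fall with NFAT2-CARIT went further in 9 genes: Gvin1 (a difference of -0.66 ± 0.17, limma adjusted p = 0.0171), Nod1 (-0.48), Dnm1 (-0.48), Adpgk (-0.45), Gprc5b (-0.43), Arrdc4 (-0.35), Ehd3 (-0.32), Acsbg1 (-0.32) and Tgtp2 (-0.29), all with adjusted p between 0.00205 and 0.0268. In all 9 the NFAT2-CARIT libraries lay wholly below the NFAT2-CA libraries. The same held for Zfp683 and Eya2, which did not pass (limma adjusted p = 0.114 and 0.160). The share of all tested genes without such overlap is not given, so a lack of overlap is a description only, in either direction. The 9 genes hold both GTPases but no p200 gene, and Arrdc4 of the alpha-arrestins. Txnip differed by 0.07 ± 0.07 (limma adjusted p = 0.465). The other 28 genes did not pass, among them Vipr1, Cd96, Pglyrp2, Ifi209 and Ifit1bl1; missing the threshold does not show that the vectors acted alike on them. The calls that rested on single libraries were those of Fcgr3, lost without any 1 of 7 libraries (Control 1 or 2, NFAT2-CA 1 or 3, NFAT2-CARIT 1, 2 or 3; limma adjusted p up to 0.202), Samd9l (Control 1, NFAT2-CA 1 or 2, NFAT2-CARIT 2 or 3; up to 0.164), Arrdc4 (NFAT2-CA 2 or 3, NFAT2-CARIT 3; up to 0.0746), Acsbg1 (NFAT2-CA 2, NFAT2-CARIT 1; up to 0.136) and Tgtp2 (NFAT2-CA 1; 0.0511). The count of genes higher with NFAT2-CARIT was 3 in place of 5 without Control 1, NFAT2-CA 1 or NFAT2-CARIT 2, with the same genes tested.

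**Figure D2:**
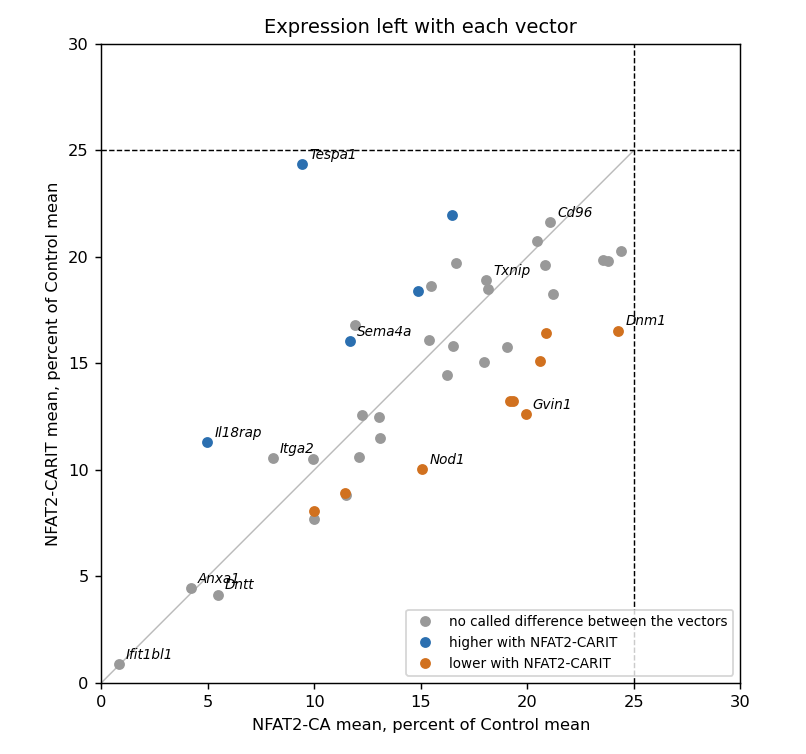
Each point is 1 of the 42 genes, placed by its NFAT2-CA mean (x axis) and NFAT2-CARIT mean (y axis) as a percent of the Control mean; dashed lines mark the 25% limit and the grey line equal values. Most points lie along the grey line, Tespa1 and Il18rap lie above it, and the 9 genes lower with NFAT2-CARIT (orange) lie under it.

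**Figure D3:**
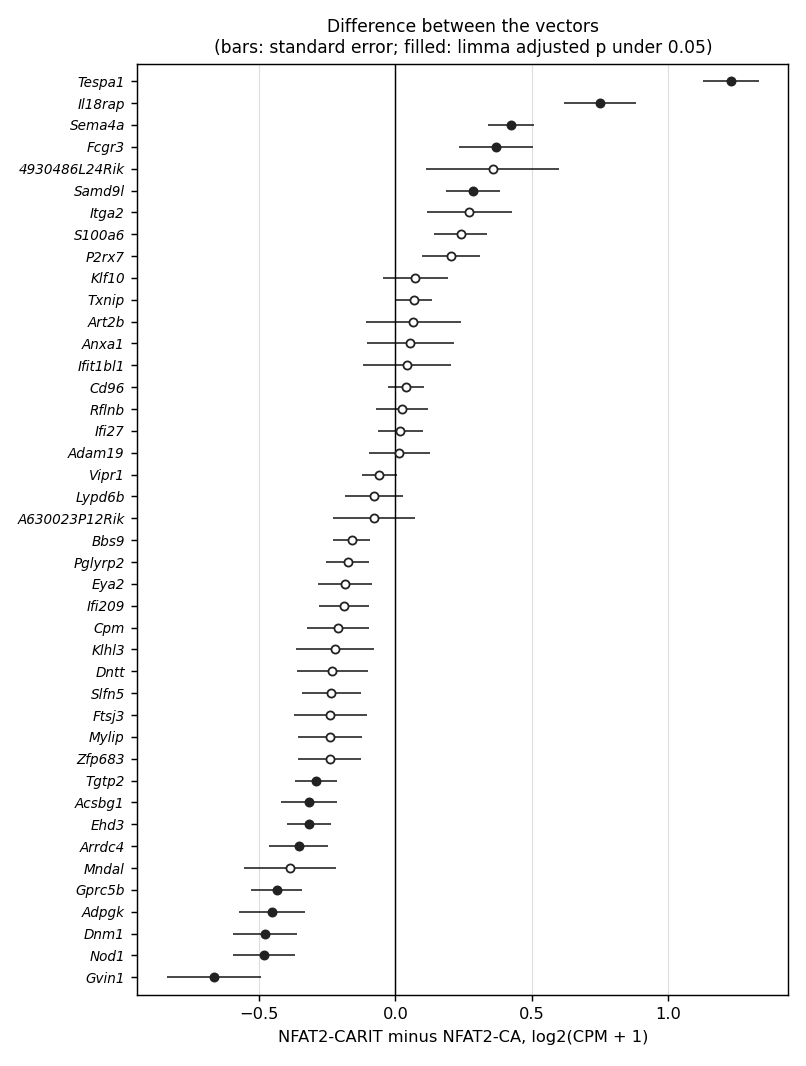
The NFAT2-CARIT minus NFAT2-CA difference in log2(CPM + 1) is drawn for each of the 42 genes with its standard error (3 libraries per group); filled points have a limma adjusted p under 0.05. The values run from -0.66 for Gvin1 to 1.23 for Tespa1, and 28 of the points are open.

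To see how far the fall extended to relatives, 76 paralogs of the 42 genes and 45 of their partners (ligands, subunits, substrates) were named. Of these, 46 paralogs and 30 partners reached 10 CPM in at least 3 libraries and were tested against Control. Of the paralogs, 24 were lower and 13 higher with NFAT2-CA, and 20 were lower and 14 higher with NFAT2-CARIT. The partners gave 15 lower and 9 higher with NFAT2-CA, and 17 lower and 7 higher with NFAT2-CARIT. Over all genes tested, 40.5% were lower and 31.6% higher with NFAT2-CA, and 43.3% were lower and 32.1% higher with NFAT2-CARIT. The level needed for the test fixed part of these counts. In 5 paralogs (Sema4c, Cpd, Gprc5a, Ehd4 and Klf4) no Control library reached it, and they were tested through libraries with a vector. A rise of these was therefore largely fixed beforehand. A further 1 paralog and 3 partners reached it in the Control libraries alone and could only have been lower. Relatives of the 42 genes had medians of -0.21 and -0.04 for paralogs and -0.21 and -0.18 for partners on the log2(CPM + 1) scale, against -0.07 and -0.09 for all genes. Of the tested relatives, only Cd226 passed the limits that chose the 42, and it is one of those left out by name.

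Families to which the 42 belong were counted in the same way, with the 42 themselves left out. Of the p200 family, all 5 other tested genes were lower with both vectors: Ifi206 (63.9 to 3.96 and 2.19 CPM) and Ifi203 (145 to 11.4 and 8.34 CPM), both left out by name, Ifi214 (19.6 to 0.787 and 0.406 CPM), Ifi208 (13.8 to 0.261 and 0.310 CPM) and, to a much smaller extent, the DNA sensor Aim2 (40.3 to 27.9 and 30.7 CPM). Ifi206 and Ifi203 passed the limits that chose the 42, and 3 of the 5 reached the level needed for the test in the Control libraries alone, so that the direction is largely fixed by the choice of genes. Without any 1 Control library only 2 were lower, since fewer of the 5 then reached the level needed for the test. Of the other interferon-inducible GTPases, 12 of 15 were lower and 2 higher with each vector, among them Iigp1 (39.2 to 17.6 and 8.05 CPM) and Gbp9 (129 to 34.9 and 31.4 CPM). Of 5 other Schlafen genes, 4 were lower with each vector, led by Slfn1 (232 to 54.0 and 59.3 CPM) and Slfn8 (77.5 to 23.1 and 19.5 CPM).

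The wider list of interferon-stimulated genes was split: of 26 tested, 17 were lower and 8 higher with NFAT2-CA, and 16 lower and 8 higher with NFAT2-CARIT. Of the 26, 3 reached the level needed for the test in no Control library (Ifitm3, Ifitm1 and Rsad2), and Xaf1 reached it in the Control libraries alone and passed the limits that chose the 42, so the direction of these was fixed in part by their choice. The viral-entry inhibitors Ifitm3 (2.09 to 42.6 and 40.0 CPM) and Ifitm2 (10.7 to 58.8 and 55.5 CPM) rose, as did Ifi27l2a (58.1 to 112 and 128 CPM), a paralog of Ifi27. Ifit2 fell from 46.3 to 13 and 9.95 CPM, in the direction of Ifit1bl1.

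Among lists of T cell genes that hold few or none of the 42, the naive and memory list had 18 of 22 lower with NFAT2-CA and 19 of 22 lower with NFAT2-CARIT. Chemokine receptor and homing genes were lower in 15 of 19 and 13 of 19, with Ccr8 (11.6 to 59.3 and 42.6 CPM) going up. All 5 Ly6 and Thy1 genes and all 3 Ms4a genes tested were lower with both vectors. Of these, 3 Ly6 and Thy1 genes and 1 Ms4a gene passed the limits that chose the 42 and were left out by name. In each of these lists 1 gene reached the level needed for the test in the Control libraries alone, so the direction is largely fixed by the choice of genes. Genes past the limits that chose the 42 are also among the naive and memory genes (2), the homing genes (1) and the Th1 genes (2), and 2, 1 and 2 genes of these lists, some of them the same, reached the level needed for the test in the Control libraries alone. The Th1 and IL-12/IL-18 list, which holds Il18rap, was divided, with 7 lower and 7 higher of 16 with NFAT2-CA and 9 lower and 6 higher with NFAT2-CARIT, Nkg7 (9.47 to 117 and 51.5 CPM) being the largest rise. T cell receptor signalling genes gave 17 lower and 11 higher of 32 with NFAT2-CA and 19 lower and 9 higher with NFAT2-CARIT.

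The Gimap list gave 4 lower and 1 higher of 8 with NFAT2-CA and 6 lower and 1 higher with NFAT2-CARIT, the last of which did not pass without any 1 of 7 libraries (all but Control 3 and NFAT2-CA 3). The SLAM and CD2 list gave 4 lower and 3 higher of 8, then 6 lower and 1 higher. Of the 3 ectoenzymes tested beside Art2b and P2rx7, Dpp4 fell (150 to 72.0 and 52.8 CPM) and the adenosine-producing Nt5e rose (15.7 to 64.5 and 71.1 CPM) with both vectors. Cell cycle genes, listed for contrast, were higher in 14 of 15 with each vector, as in Mki67 (151 to 874 and 981 CPM); the part of cell division in the falls of the 42 was not tested.

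**Figure D4:**
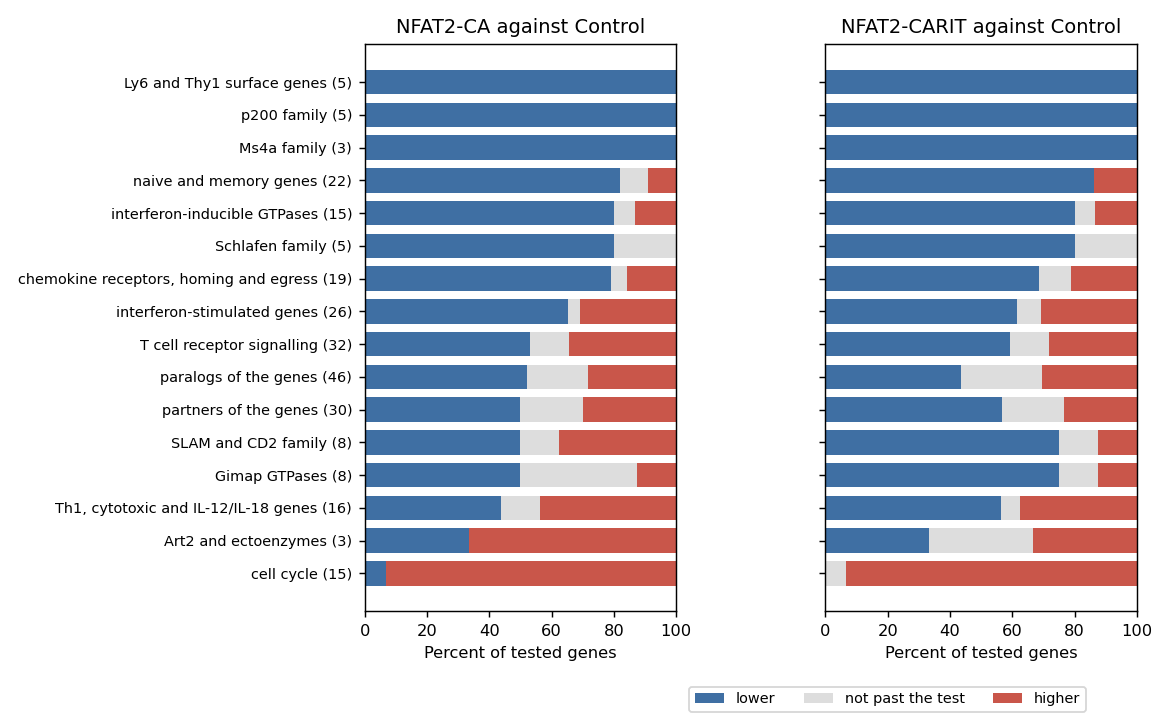
Bars show the percent of tested genes in each list, number tested in brackets, that were lower (blue), higher (red) or not past the limma test (grey) against Control with each vector; the 42 genes themselves are left out. The p200, Ms4a and Ly6/Thy1 bars are wholly blue, cell cycle is almost wholly red, and paralogs and partners of the 42 are mixed. The direction in the wholly blue bars is largely fixed by the choice of genes and the level needed for the test.

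Genes next to the 42 were examined because local groups could fall together. Within 100 kb of 34 of the genes lay 94 other tested genes that had not passed the limits, of which 51.1% were lower with NFAT2-CA and 56.4% with NFAT2-CARIT, somewhat above the 40.5% and 43.3% of all genes. Of the 94, 10 reached the filter through the Control libraries alone and so could only have been lower. Around Tgtp2 the interferon-inducible Ifi47 (204 to 62.0 and 58.7 CPM), 9930111J21Rik2 (346 to 100 and 121 CPM) and 9930111J21Rik1 (114 to 33.2 and 35.1 CPM) fell. Beside 4930486L24Rik, Ctla2a (186 to 41.4 and 53.0 CPM) and Ctla2b (18.9 to 4.75 and 6.34 CPM) fell, and beside Art2b so did the phosphodiesterase Pde2a (157 to 31.1 and 62.1 CPM).

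Other neighbours did not fall. Ftsj3 lies between Ddx42, 2 bases away, and Psmc5, 74 bases away, which had 142, 151 and 162 CPM and 33.5, 33.8 and 33.0 CPM, and neither was lower with either vector. Near Txnip, Polr3gl (35.1, 34.5 and 38.0 CPM) and Rbm8a (17.3, 15.0 and 16.3 CPM) passed the test with neither vector. In the annotation 8 of the 42 overlap another gene on the same strand and 14 a gene on the opposite strand, such as Gm15441 at Txnip, Ciz1 at Dnm1, Bbs4 at Adpgk and Iqck at Gprc5b; no source states that the counting used strand, so reads from such pairs may be mixed.

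Promoter windows from 250 bases before to 50 bases after the start were matched in RefSeq (GRCm38.p6) for 35 of the 42 genes. CpG dinucleotides, which crowd in the promoters of housekeeping genes, were few: taking the highest window of each gene, the 35 had a median of 8 CpG per 300 bases, against 24 in 5282 other genes of at least 20 CPM in Control and 23 in those of 20 to 50 CPM. At most 5 CpG were found in 15 of the 35 (42.9%), in 4.47% of the other genes of at least 20 CPM and in 41.8% of all genes with a window, expressed or not. The share was 14.5% in 221 genes that kept between 0.25 and 0.5 of Control with both vectors, 2.62% in 3092 genes within 0.7 to 1.4 of Control, and 9.38% in 128 genes that were at least 20 CPM with both vectors and at most 0.25 of that in Control. These are descriptions without a test.

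The last 150 bases before the start are shown for 4 of the genes, from few CG to many, with each CG in capitals (RefSeq, GRCm38.p6, gene's strand). They are Dntt (chr19:41029125-41029274, plus strand, 1 CG), Cd96 (chr16:46120249-46120398, minus strand, 2), Itga2 (chr13:114932101-114932250, minus strand, 8) and Ftsj3 (chr11:106256085-106256234, minus strand, 15).
Dntt: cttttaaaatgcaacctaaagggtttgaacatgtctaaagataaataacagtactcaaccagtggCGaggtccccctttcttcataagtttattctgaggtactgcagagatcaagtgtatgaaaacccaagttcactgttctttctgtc
Cd96: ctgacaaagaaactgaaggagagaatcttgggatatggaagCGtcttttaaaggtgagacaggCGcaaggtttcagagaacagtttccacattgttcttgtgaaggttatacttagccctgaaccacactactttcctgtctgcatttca
Itga2: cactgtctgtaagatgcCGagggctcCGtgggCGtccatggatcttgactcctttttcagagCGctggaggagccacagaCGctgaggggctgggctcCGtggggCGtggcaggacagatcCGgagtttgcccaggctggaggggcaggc
Ftsj3: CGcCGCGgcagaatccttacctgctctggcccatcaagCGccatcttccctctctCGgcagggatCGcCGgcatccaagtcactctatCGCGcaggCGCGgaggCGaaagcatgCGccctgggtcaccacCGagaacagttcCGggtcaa
Dntt and Cd96 are lymphoid genes, while Ftsj3 acts in the nucleolus of every cell. Over their whole promoter windows these had 2, 4 and 21 CG. Rflnb (44), Cpm (37) and Vipr1 (35), which is typical of resting T cells, had more than Ftsj3. The median was 24 in other genes of at least 20 CPM in Control. The stretches shown are examples, and a link of CG density to tissue was not tested.

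**Figure D5:**
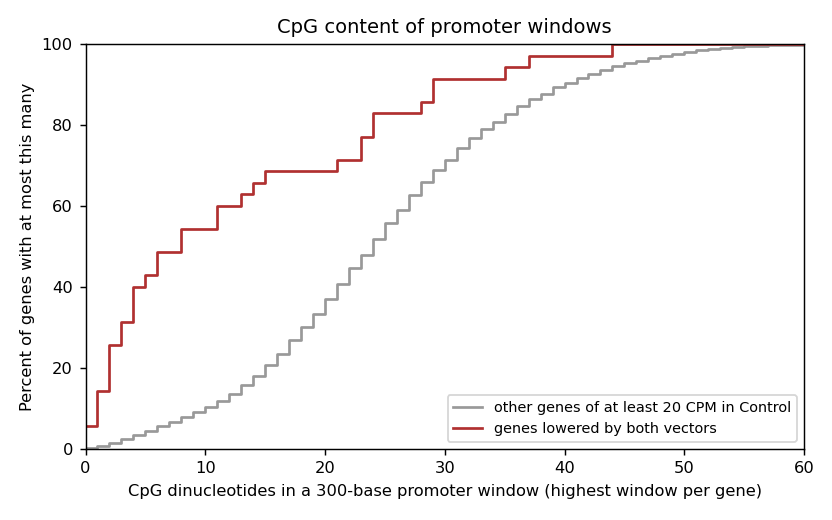
The lines give the percent of genes (y axis) with at most the number of CpG dinucleotides on the x axis in their promoter window of 300 bases, for 35 of the 42 genes (red) and 5282 other genes of at least 20 CPM in Control (grey). At 5 CpG the red line has reached 42.9% and the grey line 4.47%.

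Other motifs, searched on both strands, differed less. AP-1 (TGANTCA) was in 14.3% of the 35 genes and 5.57% of other genes of at least 20 CPM, RUNX (TGTGGT) in 25.7% and 14.3%, ETS (CAGGAAG) in 25.7% and 15.5%, the TATA box (TATAAA) in 17.1% and 7.48%, STAT (TTCNNNGAA) in 14.3% and 8.01%, TCF/LEF (CTTTGA) in 17.1% and 13.8%, the CACCTG E-box in 11.4% and 19.6% and KLF (CACCC) in 65.7% and 66.4%. Counted by window, AP-1 was in 13.3% of windows of the matched genes and 7.81% of all windows, and ETS in 22.2% and 13.3%. RUNX was in 20% and 16.8%, the TATA box in 15.6% and 13.6% and STAT in 11.1% and 8.30%. TCF/LEF was in 13.3% and 16.0%, the E-box in 11.1% and 20.2% and KLF in 66.7% and 57.5%. The part of CpG content in these shares was not tested. With 35 genes, 14.3% is 5 genes, and a match in this window is only a description of its letters. The AP-1 letters were found in Adam19, Art2b, Ifi209, Mndal and P2rx7. Tespa1 and Gvin1, which were called between the vectors, had no window. The part of AP-1 in the differences between the vectors was not tested.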

How the data were processed

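RNA of retrovirally transduced CD4+ T cells was sequenced as 9 paired-end libraries, 3 per group, and samples were grouped by their titles. The values deposited by the authors are CPM per gene (read counts scaled to a common library total) with 0.0001 added, per the file headers and the values themselves; Partek (version 10), DESeq2 and the mm10 build are named in the submitters' processing notes, while no source used here gives the aligner or the counting. The authors' deposited comparison of NFAT2-CARIT with NFAT2-CA gives p-values and adjusted p-values, log2 ratios, and a summed signal over the 9 libraries per gene that was not used.

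The members were taken by the rule in the report, and the members and gene lists were chosen with earlier results of these data known. limma 3.58.1 (R 4.3.3) was run on log2(CPM + 1) over the 9233 genes of at least 10 CPM in at least 3 libraries, with all 9 libraries, group means, trended and robust empirical Bayes and Benjamini-Hochberg adjustment; genes with an adjusted p under 0.05 were called. All 42 genes passed this filter, 23 of them through the Control libraries alone. The test was checked on simulated data drawn around the Control means with 1 spread for all genes. Only genes of at least 20 CPM were changed there. The check therefore does not cover genes as low as most of the 42 were with the vectors. Fold changes on this scale are understated for low genes. A whole-read step was found within 0.1 read for 81.2% to 84.3% of values up to 1 CPM, which gave the depth; this share was too low for a count test. At 5 CPM a value rests on 100 to 191 reads, and counting error is all that such a floor covers. Exon length came from GENCODE M21 and promoter windows from RefSeq.

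Genes named with a value in every library were the 12 with the highest Control mean, the 10 with the least left, those called between the vectors (up to 8 in each direction, with the ninth named as well), members of the gene lists, and those nearest the limit. Of each list, up to 3 other genes with the largest called change could be named; relatives by name and neighbours were chosen after the members were known, and some other genes were singled out after their values were seen. Alternatives were other pseudocounts, filters, scalings, library sets and limits, and the replicate number as a block; with every library left out in turn, the genes tested were also held fixed, a choice made after seeing the data. No promoter entry was matched for Eya2, Gvin1, Ifi27, Klf10, Lypd6b, Tespa1 and Zfp683.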

Additional observations from a re-analysis of the deposited data

How the results depend on the processing

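The number of genes past the rule was 90 at a limit of 0.33 of Control and 18 at a Control mean of at least 50 CPM, and stayed within 1.5 times of 42 under the other settings. The median left with NFAT2-CA was 13.1% and 24.3% at limits of 0.20 and 0.33, 15.5% and 14.0% at Control means of at least 10 and 50 CPM, 16.2% with TMM factors, and 15.7% to 16.3% with each library left out. With NFAT2-CARIT it was 12.6% and 20.8% at those limits and 16.7% with quantile normalization, and 14.6% to 16.4% with each library left out. Between the vectors, the count of genes higher with NFAT2-CARIT was 3 without a filter and 3 with only the 6 libraries compared, and the count lower was 1 with those 6 libraries. With each library left out the counts were 2 to 5 higher and 3 to 12 lower. The lowest of these counts came with fewer genes tested: 15 of the 42 reached the filter in the 6 libraries, and 19 when a Control library was left out. With the genes held fixed (added after seeing the data), the counts were 3 to 5 higher and 8 to 12 lower with each library left out, and 4 higher and 7 lower in the 6 libraries. Of the 14 calls, 7 held under all settings in which the gene was tested (Adpgk, Dnm1, Gprc5b, Il18rap, Nod1, Sema4a, Tespa1); Ehd3 did not pass with quantile normalization, nor Gvin1 in the 6 libraries. None reversed, and 10 of the 28 other genes passed under at least 1 setting. The replicate numbers did not pair the libraries: deviations of same-numbered libraries correlated between -0.24 and 0.31. With the replicate number as a block, 4 genes were higher and 10 lower, 13 of the 14 calls stayed, and that of Fcgr3 was lost. Counts over the gene lists against Control stayed within 1.5 times (50 higher and 106 lower with NFAT2-CA, 47 and 110 with NFAT2-CARIT in all), except for small lists. The p200 list had 2 lower in place of 5 when a Control library was left out and fewer of its genes passed the filter, and the counts of 1 or 2 in the Gimap, ectoenzyme and cell cycle lists moved between 0 and 2.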
